A study of Rattus norvegicus with 24 samples.

Results

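Pannexins and connexins are 2 families of membrane channel proteins, and 5 rat genes of these families were examined across the cartilage zones of the growth plate: Panx1, Panx2, Panx3, Gja1 and Gjb2. All probe sets that the platform annotation assigned to them were taken. These were 8 of the 31099 probe sets on the array, 3 each for Panx1 and Gja1 and 1 each for Panx3 and Gjb2. Panx2 had no probe set in that annotation and was not analysed here. The genes were chosen with their zone values in these data known, so their differences between zones are given as a description, with a standard error or 95% interval and no p-value. Calls by the rule applied to all probe sets are counted for them beside the share of all probe sets called, and nothing is read from those counts.

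The study measured total RNA of cartilage cut by hand from the upper end of the tibia of untreated rats aged 1 week. It is titled for Indian hedgehog signalling in the growth plate after birth. The 24 arrays came from 5 numbered animals and 5 zones: epiphyseal cartilage (4 arrays, animals 1, 2, 4 and 5) and the resting, proliferative, proliferative-hypertrophic transition and hypertrophic zones (5 arrays each, animals 1 to 5). All animals were labelled as not castrated, and no group carried an allele or agent. The resting, proliferative and hypertrophic arrays were labelled as from male rats, whereas the source labels of the epiphyseal and transition arrays named only the zone, so any difference in how these sets of arrays were made and the zone cannot be told apart in a comparison that crosses them. Each zone was bulk tissue, in which fewer cells of a type and less RNA per cell cannot be told apart.

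In the growth plate, resting chondrocytes give rise to columns of dividing proliferative chondrocytes, which leave the cell cycle in the transition zone and enlarge as hypertrophic chondrocytes next to bone. Connexins assemble into hemichannels that dock between neighbouring cells as gap junctions and pass ions and small metabolites. Pannexins have a similar membrane topology but mostly work as single-membrane channels that release ATP. In mouse chondrocytes and osteoblasts, Panx3 has been described both as an ATP release channel and as a calcium channel of the endoplasmic reticulum. Gja1 encodes Cx43, the main gap junction protein of osteoblasts and osteocytes. Gjb2 encodes Cx26, known for its part in the inner ear, liver and skin.

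The connexins Gja1 and Gjb2 had their highest zone mean in the same zone. Panx3 had its highest mean there too, but no sequence before its start was available. The sequence before the start of Gja1 and Gjb2 is shown. Both are the 250 bases before the annotated start in RefSeq, on build GRCr8, written 5′ to 3′ in the direction of the gene. For Gja1 this was chr20:36302314-36302563 on the plus strand, and for Gjb2 chr15:35381954-35382203 on the minus strand. Capitals mark matches to 3 of 4 short motifs that were searched on both strands.
Gja1: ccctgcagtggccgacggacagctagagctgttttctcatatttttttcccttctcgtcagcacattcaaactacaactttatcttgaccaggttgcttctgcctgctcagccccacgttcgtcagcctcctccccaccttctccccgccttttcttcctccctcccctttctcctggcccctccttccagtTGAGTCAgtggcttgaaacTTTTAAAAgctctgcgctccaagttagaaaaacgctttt
Gjb2: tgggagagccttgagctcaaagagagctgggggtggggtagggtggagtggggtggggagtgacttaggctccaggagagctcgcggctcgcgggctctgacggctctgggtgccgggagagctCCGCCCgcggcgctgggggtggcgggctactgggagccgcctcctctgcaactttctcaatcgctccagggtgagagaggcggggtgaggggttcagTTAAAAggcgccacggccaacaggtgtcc
The motif TTAAAA, which resembles a box of core promoters, stood 37 bases before the start of Gja1, where a copy on the other strand overlapped it, and 29 bases before the start of Gjb2, and 19.0% of 33469 rat promoter windows of the same length held it. The AP-1 motif TGANTCA stood 58 bases before the start of Gja1 and was in 6.34% of windows. The motif GGGCGG, bound by Sp factors, lay on the reverse strand 126 bases before the start of Gjb2 and was in 30.5% of windows. TGTGGT, the RUNX motif, had no match in either window, against 14.5% of all windows.

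The deposited values are MAS5 signals on a linear scale with nearly the same trimmed mean in every array, and the array medians lay between 135.3 and 244.6. The label of cartilage was borne out by 9 marker genes measured here, among them Col2a1 and Acan, whose summed signal lay between 225700 and 568800 in all zones. No marker of 7 other cell types was at 0 in any zone, but this does not show that those cells were present. Single signals went down to 3.4, for an endothelial marker in the resting zone, far below the array medians. Differences below are on the scale of log2(signal + 16), from limma fits with the animal as a block. A call needed an adjusted p under 0.05 over 19213 tested probe sets and a change of at least 2-fold. The tested probe sets were those above their array's median in at least 4 arrays, and 3 of the 8 pannexin and connexin probe sets passed: those of Panx3 (23 arrays above the median), Gja1 (24 arrays) and Panx1 (7 arrays). The Gjb2 probe set missed this filter by 1, with 3 arrays above the median.

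Panx3 was low in epiphyseal and resting cartilage, far higher in the proliferative zone, and higher again in the transition and hypertrophic zones. Its signals in animals 1, 2, 4 and 5 were 751.8, 91.4, 236.2 and 282.7 in epiphyseal cartilage. In animals 1 to 5 they were 298.3, 377.4, 236.9, 390.0 and 222.8 in the resting zone. They were 10414.0, 10486.3, 5599.4, 6610.9 and 5110.5 in the proliferative zone. No proliferative array overlapped with any resting or epiphyseal array. Transition arrays read 39911.7, 31764.1, 24321.3, 24746.4 and 32416.8. Hypertrophic arrays read 47408.9, 38425.3, 29962.1, 20423.7 and 28897.8. The transition and hypertrophic arrays overlapped with each other and lay above every proliferative array.

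**Figure D1:**
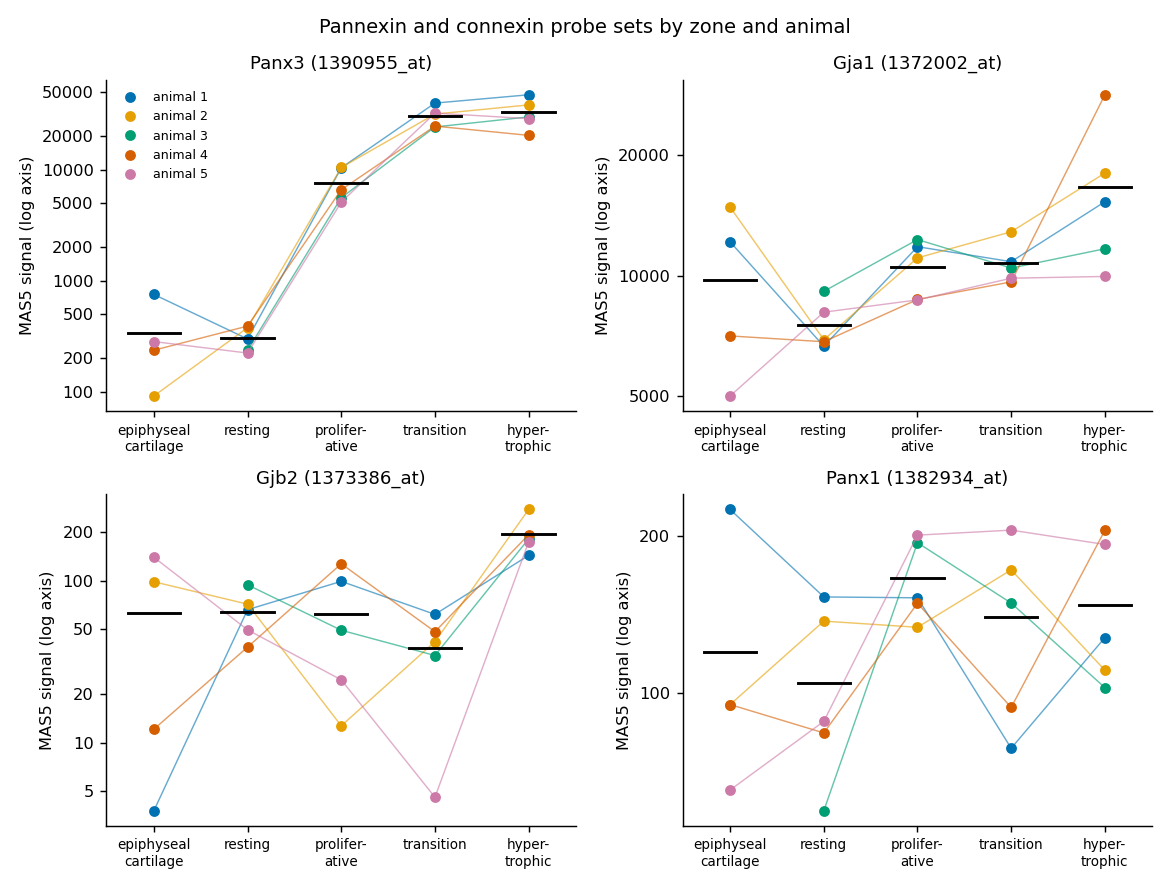
MAS5 signal (log axis) of the main probe set of Panx3, Gja1, Gjb2 and Panx1 in each of the 24 arrays, by zone, with points coloured by animal, lines joining an animal's arrays and black bars at the zone means. Panx3 lies between 91.4 and 751.8 in epiphyseal and resting cartilage and at 5110.5 or above in the other zones, and all 5 hypertrophic arrays of Gjb2 lie above its other 19 arrays.

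The mean signal of Panx3 was 7644 ± 2618 in the proliferative zone and 305.1 ± 77.3 in the resting zone (SD, n = 5 each). The log2 difference, proliferative minus resting, was 4.54 ± 0.28 (SE) with an interval of 3.96 to 5.13, or 23.3-fold. Within single animals the fold lay between 16.32 and 33.18. The next step was smaller. The transition zone averaged 30632 ± 6423, and transition minus proliferative was 2.04 ± 0.28 on the log2 scale with an interval of 1.46 to 2.63, or 4.12-fold, with single animals between 3.026-fold and 6.326-fold.

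The hypertrophic zone averaged 33024 ± 10262, and hypertrophic minus transition was 0.08 ± 0.28 with an interval of -0.51 to 0.66. In 3 of 5 animals the hypertrophic array was the higher. This difference changed sign with the scaling of the arrays, to -0.03 after quantile normalization and -0.20 after scaling each array to one median. Resting minus epiphyseal, 305.1 against 340.5 ± 286 (SD, n = 4), was 0.23 ± 0.31 with an interval of -0.40 to 0.86, and without animal 2, whose epiphyseal array read 91.4, it was -0.32. The order of the zone means was hypertrophic, transition, proliferative, and then epiphyseal above resting by mean signal but resting above epiphyseal by mean log2 signal, since the epiphyseal array of animal 1 read 751.8. The first pair and the last pair did not differ beyond their spread.

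Set against the zones farthest from it, Panx3 was 101.3-fold higher in the hypertrophic than in the resting zone (log2 difference 6.66 ± 0.28, interval 6.08 to 7.25) and 112.4-fold higher in the transition zone than in epiphyseal cartilage (6.81 ± 0.31, interval 6.18 to 7.44, in 4 of 4 animals). The hypertrophic minus proliferative difference was 2.12 ± 0.28 with an interval of 1.53 to 2.70. The residual SD of Panx3 within zones, 0.54 on the log2 scale, was small beside an SD of 3.4 between its zone means.

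Marker levels moved with some of these steps. The summed signal of 7 hypertrophic chondrocyte markers, among them Col10a1 and Ihh, was 18580 to 26160 in the proliferative zone. In the resting zone it was 16210 to 34020, so the sums overlapped. Singly, 3 of the 7 were called higher and 1 lower in proliferative minus resting (median 0.63), where 6.09% of all tested probe sets were called. In epiphyseal cartilage, where Panx3 was low, the sum was 36720 to 69440. The sum was 72930 to 126600 in the transition zone against that range of 18580 to 26160 in the proliferative zone. Osteoblast markers (6 genes, among them Col1a1 and Bglap) summed to 4028 to 12170 in the proliferative, 7356 to 16340 in the transition and 50290 to 148800 in the hypertrophic zone. Panx3 is known from osteoblasts too, and its own signal overlapped between the transition and hypertrophic zones. The part of these cells in the Panx3 signal was not tested.

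**Figure D2:**
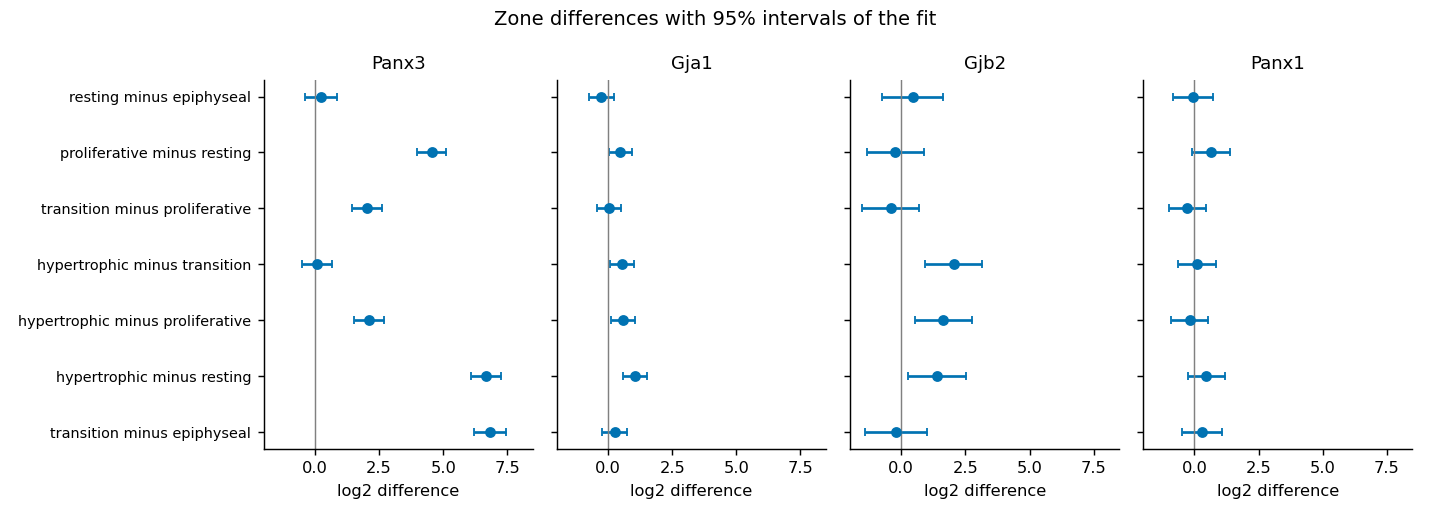
Log2 difference between zones (x axis) for the main probe set of each gene, later zone minus earlier zone, with bars for the 95% interval of the limma fit. The intervals of Panx3 lie above 1 in 5 of the 7 comparisons and include 0 for resting minus epiphyseal and for hypertrophic minus transition, and all 7 intervals of Panx1 include 0.

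Panx1, the widely expressed ATP release channel of the family, had no difference between zones with an interval that excluded 0. Some of its intervals reached beyond 2-fold, so larger differences were not excluded either. Its probe set 1382934_at read 225.2, 95.2, 95.2 and 65.3 in epiphyseal cartilage and, in resting arrays, 153.1, 137.6, 59.6, 84.0 and 88.4. Proliferative arrays read 152.5, 133.9, 194.5, 148.9 and 201.1, and transition arrays 78.5, 172.5, 149.0, 94.0 and 205.6. Hypertrophic arrays read 127.9, 110.8, 102.6, 205.4 and 193.0. The arrays of every pair of zones compared here overlapped, and 17 of the 24 signals were at or below their array's median.

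The highest zone mean of Panx1 was in the proliferative zone, 166.2 ± 29.8, against 104.5 ± 39.2 in the resting zone (SD, n = 5 each). The log2 difference was 0.64 ± 0.35 with an interval of -0.08 to 1.37. All 7 intervals of Panx1 included 0. The other probe sets of Panx1 were dimmer, with signals of 4.2 to 90.2 for 1381881_at and 6.8 to 39.2 for 1396981_at. Neither was above the array median in any array. They did not follow 1382934_at over the 24 arrays (r = -0.158 and -0.435), and for proliferative minus resting they read -0.05 and -0.36. 

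Gja1 was well above the array medians in every zone, and its differences between zones were far smaller than those of Panx3. The signals of its probe set 1372002_at were 12125.8, 14793.3, 7073.8 and 5014.8 in epiphyseal cartilage, a wide spread. They were 6669.5, 6921.3, 9132.3, 6842.5 and 8104.1 in the resting zone and 11794.3, 11062.6, 12288.3, 8717.2 and 8696.1 in the proliferative zone. Transition arrays read 10825.7, 12847.2, 10435.0, 9640.0 and 9847.1, and hypertrophic arrays 15259.1, 17979.7, 11656.1, 28163.2 and 9946.3. The hypertrophic arrays lay above all resting arrays and overlapped with those of each of the other zones.

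Gja1 averaged 16601 ± 7178 in the hypertrophic and 7534 ± 1058 in the resting zone (SD, n = 5 each), a log2 difference of 1.05 ± 0.22 with an interval of 0.59 to 1.51, or 2.07-fold, higher in 5 of 5 animals. The hypertrophic array of animal 4 had the highest Gja1 signal of all. Without it the difference was 0.78, which is under 2-fold. The proliferative zone averaged 10512 ± 1705, and proliferative minus resting was 0.47 ± 0.22 (0.02 to 0.93), higher in 5 of 5 animals. Transition minus proliferative, 10719 ± 1279 against 10512 ± 1705, was 0.04 ± 0.22, and the sign of this value varied with the setting.

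Hypertrophic minus transition was 0.54 ± 0.22 (0.08 to 1.00), higher in 5 of 5 animals, and hypertrophic minus proliferative was 0.58 ± 0.22, higher in 4 of 5 animals. Both depended on 1 library, at 0.27 and 0.31 without the hypertrophic array of animal 4. Epiphyseal cartilage averaged 9752 ± 4497 (SD, n = 4). Against it the resting zone was -0.26 ± 0.24 and the transition zone 0.25 ± 0.24, and these were 0.26 and 0.77 once animals 1 and 2 were left out of the epiphyseal arrays. The order of the zone means was hypertrophic, transition, proliferative, epiphyseal and resting. Transition and proliferative, and epiphyseal and resting, did not differ beyond their spread. Neither did transition and epiphyseal, with an interval of -0.24 to 0.74, so the place of epiphyseal cartilage in this order was not firm.

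The other Gja1 probe sets were dim and did not all follow this pattern. Over the 24 arrays 1369640_at ran from 17.5 to 178.4 and correlated with 1372002_at at r = 0.638, and 1369639_at ran from 9.0 to 205.8 and correlated at r = -0.105. For hypertrophic minus resting they read 0.79 ± 0.41 and -0.20 ± 0.46, both with intervals that include 0. Each was above its array's median in 1 array.

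Other cell types stood beside the Gja1 differences. Summed osteoblast markers were 50290 to 148800 in the hypertrophic zone and 4173 to 15700 in the resting zone. Osteoclast and macrophage markers (7 genes) summed to 8792 to 84240 in the hypertrophic, against 1187 to 2139 in the transition and 1546 to 25390 in the resting zone. Endothelial markers (6 genes) summed to 850 to 2824, 468.6 to 673.4 and 417 to 1933 in the same 3 zones. In the hypertrophic array of animal 4 the osteoblast sum was 148800, the osteoclast and macrophage sum 84240 and the perichondrium and fibroblast sum 59920, each the highest of the 5 hypertrophic arrays. Its endothelial sum, 2824, was the highest too. Its erythroid (19920), leukocyte (10290) and skeletal muscle (16010) sums were not, as other hypertrophic arrays reached 32220, 13630 and 34580. Its cartilage sum, 233100, was the lowest of the 5. The osteoclast and macrophage sum of epiphyseal cartilage ran from 2709 to 64750, highest in animal 1. Gja1 is expressed by many of these cell types, and their part in its signal was not tested.

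**Figure D3:**
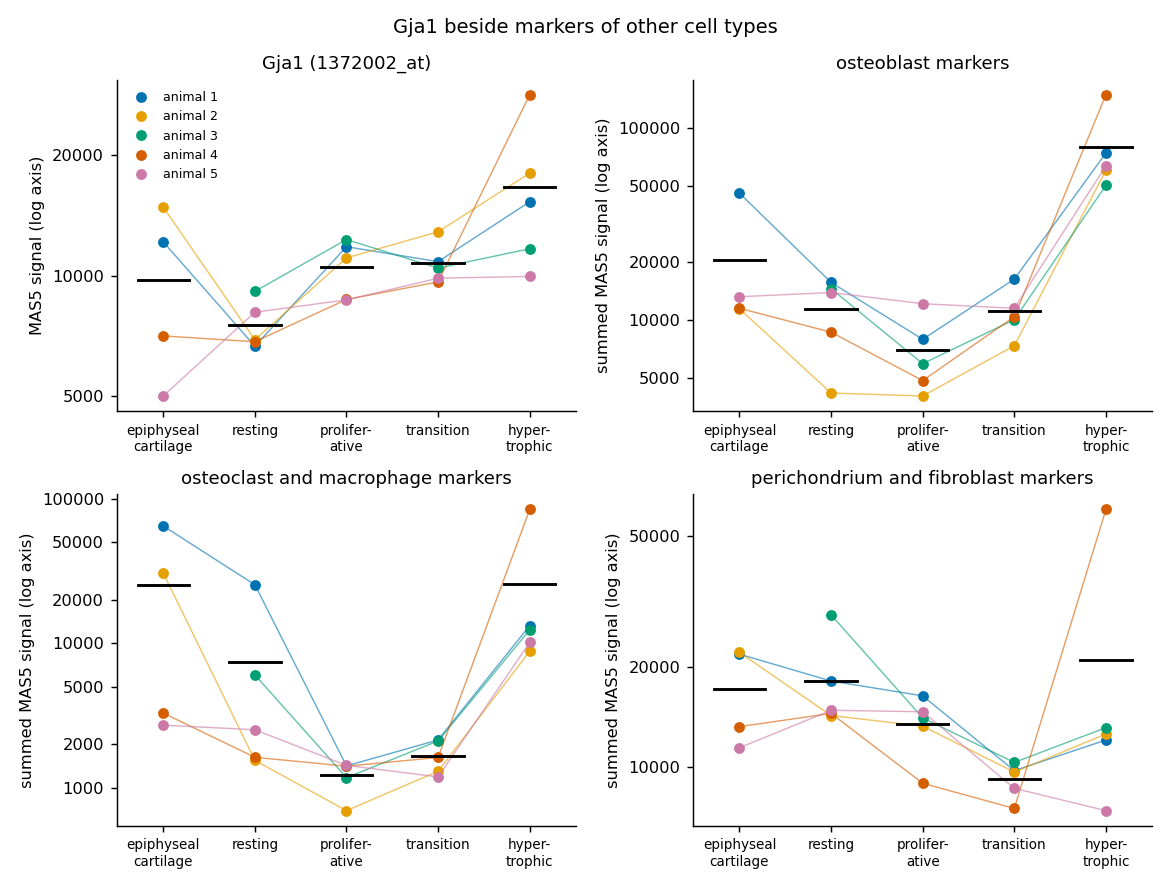
Gja1 signal (probe set 1372002_at) and the summed signal of the osteoblast, osteoclast and macrophage, and perichondrium and fibroblast markers (log axes) in each array by zone, with points coloured by animal, lines joining an animal's arrays and black bars at the zone means. The hypertrophic array of animal 4 is the highest hypertrophic array in all 4 panels, with a Gja1 signal of 28163.2 and sums of 148800, 84240 and 59920. The erythroid, leukocyte and skeletal muscle sums, which are not drawn, were not highest in that array.

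Gjb2 was below the array median in every array of 4 zones. Its signal was higher in every hypertrophic array than in any of these, but above the array median in only 3 of the 5 hypertrophic arrays. Its signals were 3.8, 98.4, 12.1 and 139.4 in epiphyseal cartilage, 66.2, 71.6, 94.2, 38.9 and 49.7 in the resting zone and 99.0, 12.7, 49.4, 127.1 and 24.4 in the proliferative zone. Transition arrays read 61.9, 42.0, 34.5, 48.4 and 4.6, and hypertrophic arrays 143.2, 275.0, 181.0, 192.1 and 173.1. The lowest hypertrophic array, 143.2, lay above the highest of the other 19 arrays, 139.4, by a narrow margin.

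The hypertrophic zone averaged 192.9 ± 49.4, against 38.3 ± 21.3 in the transition, 62.5 ± 49.0 in the proliferative and 64.1 ± 21.3 in the resting zone (SD, n = 5 each). In a fit without the filter, hypertrophic minus transition was 2.04 ± 0.54 (0.93 to 3.16), hypertrophic minus proliferative 1.63 ± 0.54 and hypertrophic minus resting 1.39 ± 0.54, each higher in 5 of 5 animals. Among the other zones the intervals all included 0. Every hypertrophic array stood above every other array in 370 of the 19213 tested probe sets (1.93%) and in 8 of the 11829 probe sets that were not tested (0.0676%), of which Gjb2 was 1. Nothing about Gjb2 is read from these shares.

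At 143.2 to 275.0, the Gjb2 signal in the hypertrophic zone was near the array medians. All 5 hypertrophic arrays also lay above all 5 transition arrays in the summed osteoblast, osteoclast and macrophage, erythroid, leukocyte and endothelial markers. Erythroid markers (5 genes) summed to 9600 to 32220 in the hypertrophic and 1024 to 5471 in the transition zone. Leukocyte markers (5 genes) summed to 3507 to 13630 in hypertrophic and 727.1 to 2758 in transition arrays. In the epiphyseal array of animal 1, by contrast, Gjb2 read 3.8. The sums of that array were 45750 for osteoblast, 64750 for osteoclast and macrophage, 15450 for erythroid, 8630 for leukocyte and 5830 for endothelial markers. Its endothelial sum lay above the highest hypertrophic sum, 2824, and its osteoblast sum below the lowest, 50290. The part of these cells in the Gjb2 signal was not tested. Gjb6, the connexin gene next to Gjb2 in the RefSeq gene order, read 2.2 to 91.6 over all arrays and averaged 29.0 ± 27.7 in the hypertrophic zone.

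Across the 3 tested probe sets, all calls were in the direction of the later zone, and all but 1 of Gja1 were of Panx3. None of the 3 was called in resting minus epiphyseal, where 1.51% of all tested probe sets were called (0.651% higher), or in hypertrophic minus transition, where 9.27% were (6.78% higher). Panx3 was called higher in proliferative minus resting, where 6.09% of all tested probe sets were called and 1.97% were called higher. In transition minus proliferative, where Panx3 was called, these shares were 8.43% and 3.11%. In hypertrophic minus proliferative, again with a call of Panx3, they were 18.7% and 9.59%. In transition minus epiphyseal, where Panx3 was called too, they were 13.8% and 4.33%. Panx3 and Gja1 were called in hypertrophic minus resting, where the shares were 21.1% and 9.32%. Arrays of both zones did not overlap for the same probe sets in the same comparisons. The share of all tested probe sets with the later zone wholly above the earlier was 2.64% for resting minus epiphyseal, 3.79% for proliferative minus resting, 5.67% for transition minus proliferative, 6.78% for hypertrophic minus transition, 9.77% for hypertrophic minus proliferative, 10.3% for hypertrophic minus resting and 8.92% for transition minus epiphyseal. Since the genes were chosen on these zones, nothing is read from these counts. The Gja1 call was absent with array weights (0.93) and without animal 2 (0.97) or animal 4 (0.80).

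The genes did not share 1 pattern. Over the 24 arrays, as a description of arrays that share animals and zones, Panx3 and Gja1 correlated at r = 0.543, Panx3 and Panx1 at 0.397, Gja1 and Panx1 at 0.374 and Gja1 and Gjb2 at 0.308. Panx3 and Gjb2 correlated at 0.182 and Panx1 and Gjb2 at -0.249. Panx3 separated from Gjb2 in the proliferative and transition zones, where Panx3 was high and Gjb2 was not.

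The genes whose pattern was most like that of a channel gene were named from 10557 other genes by Pearson's r over the 24 arrays. For Panx3 these were Cdc42ep3 (r = 0.957), which encodes a binding partner of the Cdc42 GTPase, Prkg2 (0.943), a cGMP-dependent protein kinase, Cdo1 (0.939), cysteine dioxygenase, Frmd8 (0.938), a FERM domain protein, and Cldn10 (0.938), a claudin of tight junctions. Prkg2 averaged 400.2 in epiphyseal, 391.8 in resting, 1091 in proliferative, 2253 in transition and 1644 in hypertrophic cartilage. Cldn10 averaged 51.8, 75.0, 835.8, 1919 and 1179 in the same zones. Both were lower in the hypertrophic than in the transition mean, unlike Cdc42ep3, which averaged 1334, 1759, 3869, 6144 and 6384. The gene ranked 100 still had r = 0.832, so many genes had a pattern of this kind.

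**Figure D4:**
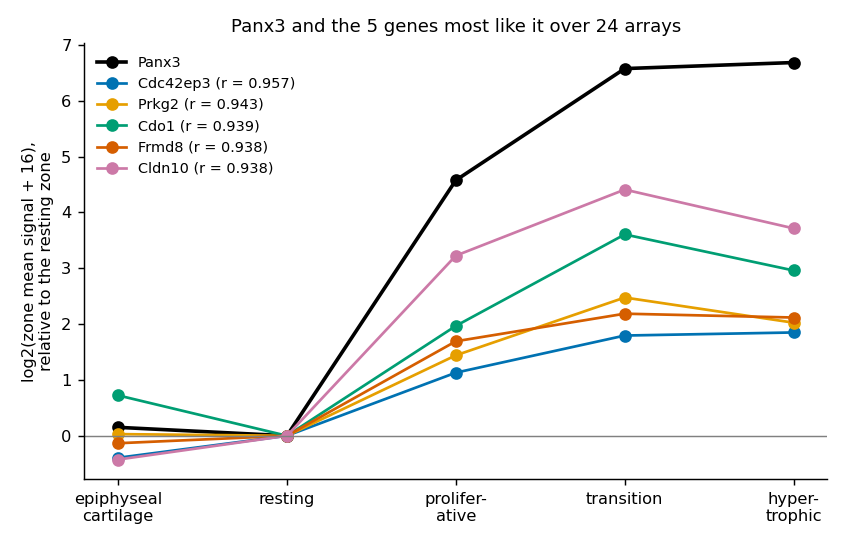
Zone means on the log2(signal + 16) scale relative to the resting zone for Panx3 and the 5 genes most like it over 24 arrays. Panx3 spans the widest range of these 6 genes, and all 6 are higher in the proliferative than in the resting zone.

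For Gja1 the most alike genes were Rnf115 (r = 0.862), Nudt4 (0.844), Eed (0.831), Ankrd44 (0.813) and Ncoa4 (0.81), and the gene ranked 100 had r = 0.695. For Panx1 they were Mgst2 (0.71), Ino80c (0.658), Clasp2 (0.643), Wfdc1 (0.642) and Atp2c1 (0.641), and the gene ranked 100 had r = 0.517. Gjb2 was not tested and has no such list.

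Genes that act with these channels were described from 5 lists, which hold none of the 5 pannexin and connexin genes of this report, and were tested. The lists were drawn up by function but with earlier results of these data known. Their adjusted p-values therefore do not come from a choice independent of the data. Over all tested probe sets, 55.6% passed limma's F test over the 5 zones. Of the other connexins, 9 of 18 were on the array, 2 were tested and 1 passed: Gjc1, which encodes Cx45. The untested connexins Gja4, Gja5, Gja6, Gjb1, Gjb5, Gjb6 and Gjd2 were mostly below the array medians.

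Gjc1 was lower in the zones where Panx3 was highest. It read 352.8, 357.8, 393.2, 517.8 and 359.9 in transition arrays and 684.8, 259.7, 347.0, 550.9 and 320.0 in hypertrophic arrays, against 900.1, 723.8, 1459.9, 562.8 and 941.7 in the proliferative zone. The transition arrays all lay below the proliferative arrays, and the hypertrophic arrays overlapped with them. Gjc1 fell by 1.12 ± 0.23 on the log2 scale in transition minus proliferative (limma adjusted p = 0.000797), in 5 of 5 animals. It fell by 1.07 ± 0.23 in hypertrophic minus proliferative (limma adjusted p = 0.000551) and by 1.12 ± 0.23 in hypertrophic minus resting (limma adjusted p = 0.000292). The change was near the 2-fold limit and was under it in some settings, such as 0.94 lower for transition minus proliferative without animal 3, with limma adjusted p = 0.00828. Gja3 had an F test adjusted p of 0.282.

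Of the purinergic receptors, which sense the ATP and adenosine that such channels help to supply, 17 of 19 were on the array, 3 were tested and 1 passed, the adenosine receptor gene Adora2b. It averaged 79.0 ± 42.6 in the hypertrophic zone, against 179.0 ± 42.1 in the proliferative and 166.9 ± 42.0 in the resting zone (SD, n = 5 each). It fell by 1.14 ± 0.33 in hypertrophic minus proliferative (limma adjusted p = 0.00836) and by 1.04 ± 0.33 in hypertrophic minus resting (limma adjusted p = 0.013). Both were near the limits of a call. The first was under 2-fold with a pseudocount of 64 (-0.80) and without animal 5 (-0.85). The second was under 2-fold with a pseudocount of 64, with array weights and without the hypertrophic array of animal 4 (-0.72 to -0.99), and missed the p threshold without animal 4 (limma adjusted p = 0.0691) or animal 5 (limma adjusted p = 0.0698). P2rx4, an ATP-gated channel, and Adora1 had F test adjusted p of 0.12 and 0.53.

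Of 20 genes of nucleotide release and hydrolysis outside the cell, 16 were tested and 13 passed the F test. Those called were 4 higher and 0 lower in transition minus proliferative, where 3.11% of all tested probe sets were called higher and 5.31% lower. They were 5 higher and 1 lower in hypertrophic minus resting (9.32% and 11.8%), and 3 higher and 4 lower in transition minus epiphyseal (4.33% and 9.46%). Of the 4 lower in transition minus epiphyseal, Ankh and Slc29a2 were not called after scaling to one median (-0.75 and -0.92), and Ankh and Enpp3 not without animals 1 and 2 among the epiphyseal arrays (-0.51 and -0.85). The median log2 differences of the list were 0.08, 0.35 and -0.02 in these comparisons, against -0.07, -0.04 and -0.07 over all tested probe sets. Alpl, tissue-nonspecific alkaline phosphatase, a mineralisation enzyme that hydrolyses pyrophosphate and nucleotides, averaged 3024 ± 713 in the transition zone and 148 ± 82.7 in the proliferative zone. It rose by 4.51 ± 0.33 (limma adjusted p = 8.99e-10) and by a further 1.35 ± 0.33 in hypertrophic minus transition (limma adjusted p = 0.00423), a comparison in which Panx3 read 0.08 ± 0.28. Alpl is also one of the hypertrophic chondrocyte markers.

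Lrrc8c, a subunit of volume-regulated anion channels, had its 5 zone means in the same order as Panx3 by mean signal. The likeness did not hold for resting minus epiphyseal on the log2 scale, where Panx3 read 0.23 ± 0.31 and Lrrc8c fell. Lrrc8c averaged 1907 ± 349 in the proliferative zone and 814 ± 206 in the resting zone. Transition arrays averaged 3992 ± 217 and hypertrophic arrays 5107 ± 1094. It rose in proliferative minus resting (1.23 ± 0.18, limma adjusted p = 3.64e-05) and in transition minus proliferative (1.08 ± 0.18, limma adjusted p = 0.000132), each in 5 of 5 animals. The second of these was just under 2-fold after quantile normalization (0.96) and without animal 5 (0.99). Its fall of 1.16 ± 0.20 in resting minus epiphyseal (limma adjusted p = 0.00092) was lost without animal 2 (limma adjusted p = 0.0553). Nt5e, the CD73 enzyme that makes adenosine from AMP, averaged 1217 ± 161 in the transition zone and 576 ± 59.8 in the proliferative zone, and rose by 1.05 ± 0.20 (limma adjusted p = 0.000306). This rise was just under 2-fold in 4 settings, at 0.95 without the transition array of animal 5 and 0.97 without animal 5, with the adjusted p still under the threshold.

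Others of this list fell. Slc29a1, an equilibrative nucleoside transporter, averaged 797 ± 216 in the proliferative zone and 1585 ± 168 in the resting zone, a fall of 1.02 ± 0.21 (limma adjusted p = 0.00172), which was under 2-fold in 4 settings, at -0.86 without animal 4 and -0.92 after scaling to one median. Entpd6, a nucleoside diphosphatase, averaged 400 ± 170 in the hypertrophic zone and 998 ± 319 in the proliferative zone, a fall of 1.33 ± 0.21 (limma adjusted p = 1.67e-05). Entpd3, by contrast, was called higher in hypertrophic minus proliferative and in hypertrophic minus resting. These rises did not reach 2-fold without the hypertrophic array of animal 4, at 0.65 and 0.81.

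**Figure D5:**
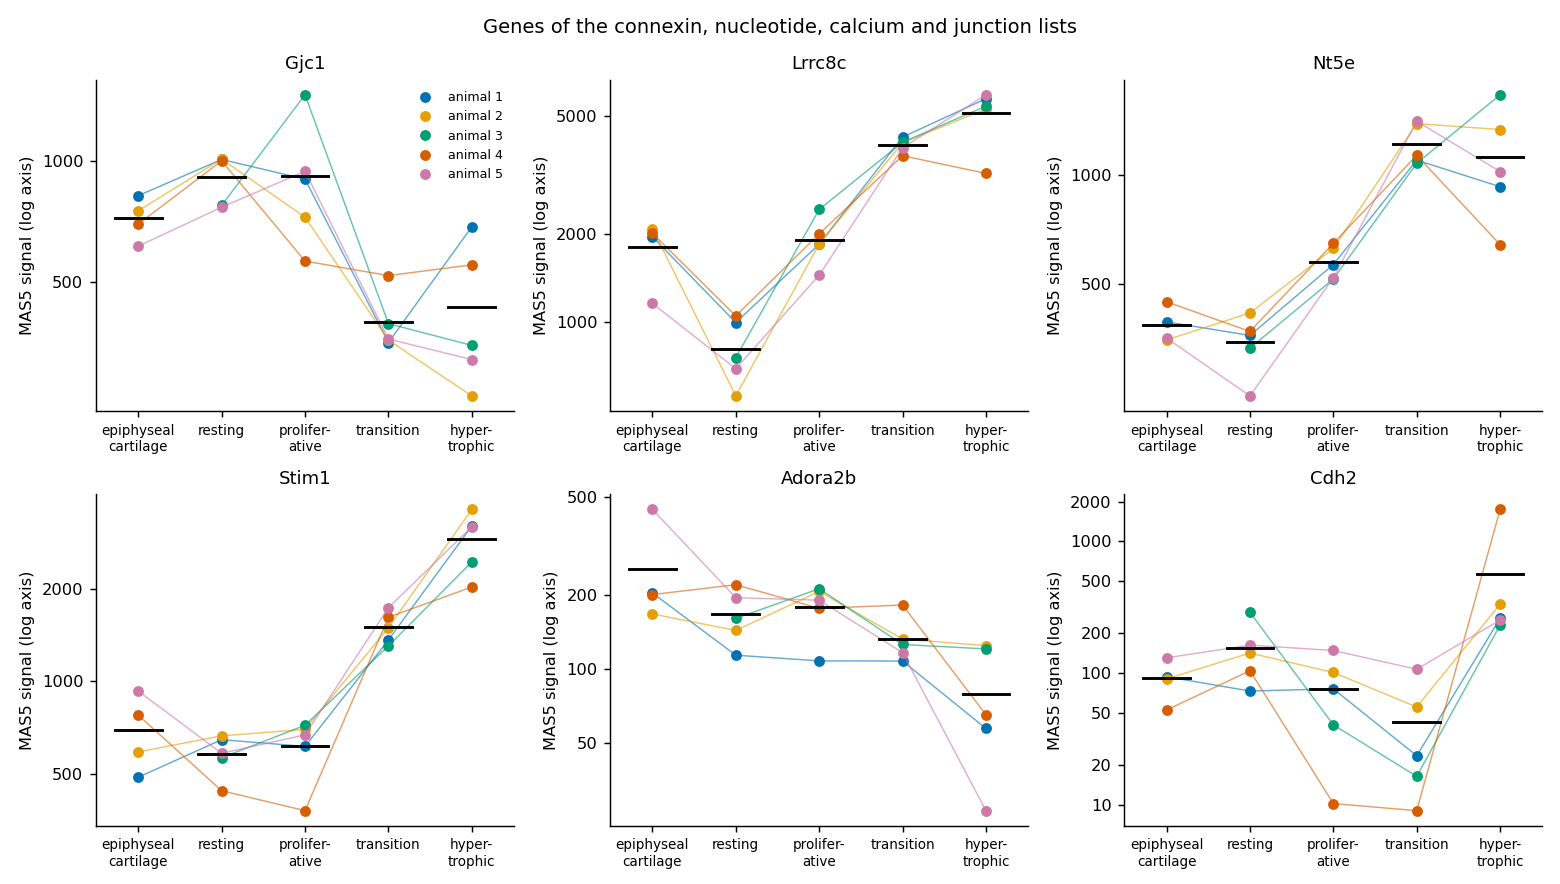
MAS5 signal (log axes) of Gjc1, Lrrc8c, Nt5e, Stim1, Adora2b and Cdh2 in each array by zone, with points coloured by animal, lines joining an animal's arrays and black bars at the zone means. Gjc1 is at 517.8 or below in all transition arrays, Lrrc8c at 3670.5 or above in them, and 1 hypertrophic array of Cdh2, that of animal 4, stands at 1749.8.

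Of 25 genes of calcium stores and NFAT signalling, 22 were tested and 13 passed the F test, or 59.1%, close to the 55.6% of all tested probe sets. Calls were 1 higher and 0 lower in transition minus proliferative, where 3.11% of all tested probe sets were called higher and 5.31% lower, and 4 higher and 0 lower in hypertrophic minus proliferative, where 9.59% were called higher and 9.07% lower. Of these 4, Rcan1 and Atp2a1 were not called in 6 settings each. Stim1, the calcium sensor of the endoplasmic reticulum, averaged 1501 ± 177 in the transition zone against 616 ± 138 in the proliferative zone, and 2888 ± 642 in the hypertrophic zone. It rose by 1.29 ± 0.18 in transition minus proliferative (limma adjusted p = 1.05e-05) and by 2.20 ± 0.18 in hypertrophic minus proliferative (limma adjusted p = 7.48e-10). Stim2, the other sensor, averaged 997 ± 215 in the transition zone, 1089 ± 246 in the proliferative zone and 442 ± 92.9 in epiphyseal cartilage, and rose by 1.09 ± 0.16 in transition minus epiphyseal (limma adjusted p = 1.78e-05).

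Atp2a2, the SERCA pump that fills the store, and Ppp3r1, a calcineurin subunit, passed the F test (limma adjusted p = 6.01e-05 and 0.000381) without a call in any comparison. Rcan2, a calcineurin regulator, averaged 339 ± 197 in the hypertrophic zone and 57.5 ± 52.0 in the transition zone, and rose by 2.54 ± 0.53 (limma adjusted p = 0.00102). Its rise in hypertrophic minus resting, 1.71 ± 0.53 (limma adjusted p = 0.0107), was lost without animal 2 (0.0583) or animal 4 (0.0917). Atp2a1, the SERCA pump of skeletal muscle, was called in 3 comparisons. Its fall in proliferative minus resting, by 1.92 ± 0.59 (limma adjusted p = 0.0303), read -1.92 with no replicate block too but then had a limma adjusted p of 0.121. Its rises in hypertrophic minus transition, by 1.87 ± 0.59 (limma adjusted p = 0.024), and in hypertrophic minus proliferative, by 1.62 ± 0.59 (limma adjusted p = 0.034), were lost with no replicate block as well (0.0952 and 0.109). Beside these, skeletal muscle markers summed to 6314 to 19510 in the proliferative and 11250 to 106400 in the resting zone.

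Of 17 junction partners and channel regulators, 9 were tested and 5 passed the F test. Calls were 3 higher and 1 lower in hypertrophic minus transition, where 6.78% of all tested probe sets were called higher and 2.49% lower, and 0 higher and 3 lower in transition minus epiphyseal, where 4.33% were called higher and 9.46% lower. Of these 3, Ccn3, a matricellular protein gene, was not called in 10 of the settings run. The 1 lower in hypertrophic minus transition was Prkca. Its call was lost in several settings, such as without animal 1 (-0.51, limma adjusted p = 0.26) and without animal 2 (-0.84, limma adjusted p = 0.206). Dbn1, drebrin, an actin-binding partner of Cx43, averaged 233 ± 55.4 in the transition zone, against 513 ± 167 in the proliferative zone, and 508 ± 101 in the hypertrophic zone. It fell by 1.05 ± 0.22 in transition minus proliferative (limma adjusted p = 0.00125) and rose by 1.07 ± 0.22 in hypertrophic minus transition (limma adjusted p = 0.00102). Both were under 2-fold after quantile normalization (-0.84 and 0.92). The kinase genes Src and Csnk1d passed the F test (limma adjusted p = 0.0034 and 0.0103) without a call in any comparison.

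Cav1, caveolin, rose by 1.86 ± 0.49 in hypertrophic minus transition (limma adjusted p = 0.00721), with signals of 88.4 to 865.7 in the hypertrophic and 42.2 to 77.1 in the transition zone. Its fall in proliferative minus resting, by 1.48 ± 0.49 (limma adjusted p = 0.0447), was lost in 9 of the settings run, such as without animal 3 (0.262). Cdh2, N-cadherin, read 260.3, 333.7, 231.5, 1749.8 and 252.7 in the hypertrophic zone, against 23.5, 55.2, 16.4, 9.0 and 106.9 in the transition zone. It rose by 3.06 ± 0.54 (limma adjusted p = 0.000207) in 5 of 5 animals. Hypertrophic minus resting for Cdh2 was 1.39 ± 0.54 (limma adjusted p = 0.0427), and 0.64 (limma adjusted p = 0.268) without the hypertrophic array of animal 4, the array that was also highest in Gja1.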

How the data were processed

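Total RNA of microdissected rat growth plate zones was amplified, labelled with biotin and hybridised to Affymetrix arrays, per the labels' protocols. The deposited intensity values are linear MAS5 signals, 1 per probe set, per the submitters' processing notes, with no version of MAS5 stated there. Trimming 2% of probe sets at either end gave array means of 500.1 to 500.2. The precision is limited by 4 or 5 arrays per zone.

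Computed here, log2(signal + 16) was fitted in R 4.3.3 by limma 3.58.1, using lmFit and eBayes with a trend, on all 24 arrays with animal as a fixed block (15 residual degrees of freedom). Leaving out 57 control probe sets, 19213 probe sets above their array's median in at least 4 arrays were tested, with Benjamini-Hochberg adjustment over all of them. Names came from the platform annotation, updated to RefSeq. A gene stands for its tested probe set of highest mean. The pairing comes from the labels, which number the animals: same-numbered arrays of different zones deviated together (median r 0.176, 46 pairs, from -0.142 to 0.36, against -0.046 for different numbers), and for 21 of 24 arrays the best match had the same number. No 2 arrays shared more than 50 identical values.

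The genes and lists were chosen with earlier results of these data known. Eligible to be named were every pannexin and connexin probe set and the 5 most alike genes for each. So were, from each list, up to 5 genes of smallest F test adjusted p plus any called in 3 or more of 7 comparisons. Ankh, Ccn3, Enpp3, Entpd3, Prkca, Rcan1, Slc29a2 and the untested connexins are named outside this rule, after their values were seen. The scripts were tested on simulated data. Alternatives were other pseudocounts (1 and 64), scalings, filters, blocks and weights, left-out arrays, and the other probe sets of each gene.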

Additional observations from a re-analysis of the deposited data

Results flagged for a closer look

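In 45 sets of 4 or 5 arrays of 1 zone, the highest or lowest array was compared with the rest by Dixon's ratio, and 4 arrays stood apart, where chance alone gives about 1 in 20. The Gja1 probe set 1369640_at read 114.4 in the transition array of animal 1, against 36.8 to 51.0 in the other transition arrays. The Panx1 probe set 1381881_at read 90.2 in the resting array of animal 5, against 4.8 to 7.7, and 59.5 in the proliferative array of animal 1, against 4.8 to 11.9. Gjc1 (probe set 1384139_at) read 517.8 in the transition array of animal 4, against 352.8 to 393.2.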

How the results depend on the processing

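Of 632 alternative values, 606 stayed near their main value, for a log2 difference within its residual SD whatever its sign. A further 25 moved, and 1 reversed the sign of a called difference. Small differences that were not called could change sign within the 606. Panx3 in hypertrophic minus transition, for example, read 0.08 in the main fit and -0.20 after scaling to one median. A call could be lost within the 606 too, as that of Gja1 in hypertrophic minus resting was without animal 4 (0.80). The residual SD of Panx1, 0.515, was larger than all its main differences except proliferative minus resting, so staying near says little for Panx1. The reversed value was Gja1 in hypertrophic minus resting, -0.20 with probe set 1369639_at. With that probe set Gja1 read -0.07 for hypertrophic minus transition, -0.37 for hypertrophic minus proliferative and -0.55 for transition minus epiphyseal, and with 1369640_at it read -0.21 for proliferative minus resting and 1.00 for hypertrophic minus proliferative. Panx1 read -0.045 (1381881_at) and -0.36 (1396981_at) for proliferative minus resting, -0.30 and -0.12 for hypertrophic minus resting, and 0.39 (1396981_at) for transition minus proliferative. Signals of these probe sets were mostly below the array medians, and the cause was not tested. After seeing the data, animals 1 and 2 were left out of the epiphyseal arrays, and Gja1 then read 0.26 for resting minus epiphyseal and 0.77 for transition minus epiphyseal. With 1 animal left out, Panx3 in resting minus epiphyseal ran from -0.32 to 0.70 and the calls in that comparison from 139 to 291, lowest without animal 2. A filter at the 75th percentile, which tests fewer probe sets, gave 713 calls against 1170 for proliferative minus resting, 1037 against 1619 for transition minus proliferative, 1001 against 1781 for hypertrophic minus transition, 2129 against 3585 for hypertrophic minus proliferative, 2446 against 4049 for hypertrophic minus resting and 1531 against 2649 for transition minus epiphyseal. It left 0 purinergic receptors and 3 junction partners past the F test. No filter gave 2 other connexins, array weights 2 purinergic receptors, and 1 left-out animal 0 to 1 (0 without animal 5). With no replicate block, Panx3 in proliferative minus resting remained 4.54, calls there were 1041, and no call of a pannexin or connexin changed. Scaling moved the share of higher calls: scaling to one median gave 42.6% against 32.3% for proliferative minus resting, 53.6% against 36.9% for transition minus proliferative, 43.1% against 73.2% for hypertrophic minus transition and 62.6% against 31.4% for transition minus epiphyseal. Quantile normalization gave 60.9% and 44.8% for the last 2 of these. Scaling to one median moved the median of all probe sets to -0.24 for hypertrophic minus transition and 0.22 for transition minus epiphyseal.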
